A study of Mus musculus with 10 samples.

Results

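Cytosolic ribosomal protein genes were examined in tibialis anterior muscle of mice labelled Lrtm1 KO and of floxed controls. Rows were taken whose symbol is Rpl or Rps, a number and no suffix other than a, l or x, together with Rplp0, Rplp1, Rplp2 and Rpsa. This rule found 79 of the 13492 genes in the deposited table, 47 of the large and 32 of the small ribosomal subunit. It leaves out ribosomal proteins with other names, such as Fau, Rps3a1 and Rack1. Testing was limited to the 12223 genes with a mean of at least 0 on the log2 CPM scale (log2 of counts relative to library size), which kept 78 members, all but Rps4l.

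The tibialis anterior is a shin muscle made mostly of fast fibres. It was taken at 6 months of age, after a 3-h fast, from C57BL/6 mice of 2 groups, Lrtm1 KO (5 libraries) and Lrtm1 WT, the floxed control (5 libraries). Litter 108 holds 2 KO and 1 WT libraries, litter 110 holds 1 KO and 2 WT, and litter 112 holds 2 of each. The series' design text states a group size of 4, and the labels were followed. The sources used here name neither the Cre nor the deleted exons. They also do not state that libraries are separate animals, so a p-value here covers the spread among libraries, which may be technical. RNA was read from oligo-dT libraries, which count polyadenylated transcripts and not ribosomes or their translation.

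Each cytosolic ribosome holds a large subunit, which joins amino acids, and a small subunit, which reads the mRNA; the genes described here encode the proteins of both. Their transcripts are short and abundant. Many start with a C followed by a run of pyrimidines, the 5′ terminal oligopyrimidine tract, through which mTOR complex 1 and Larp1 control their translation. In striated muscle of the mouse, Rpl3l takes the place of much of its close relative Rpl3 in the large subunit.

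Lrtm1 itself was not lower in the libraries labelled KO. It was at 6.20, 6.12, 6.10, 5.97 and 6.21 log2 CPM in the libraries labelled KO and at 5.61, 5.66, 5.73, 5.65 and 5.78 log2 CPM in the libraries labelled WT. The difference was 0.44 on the log2 scale (SE 0.071, adjusted p = 0.0344, limma with Benjamini-Hochberg adjustment). The difference was 0.39 to 0.49 with 1 library left out, and missed the threshold without KO 3, WT 1, WT 5 or WT 6 (adjusted p from 0.0529 to 0.143, limma). A value per gene does not show whether the deleted exons were read, so the labels are not borne out by this transcript, and KO and WT below mean the libraries labelled so. All 12 myofibre markers were listed, with summed levels of 104500 to 108900 CPM in KO and 95360 to 108300 CPM in WT. Depth is unknown, since no counts were used, and the median of all tested genes lay between 3.62 and 3.65 log2 CPM in every library.

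Levels of the members were compared per kb of transcript. The median of the tested members was 83.8 CPM per kb, against 4.43 CPM per kb over all tested genes, and 59 of the 79 lay within 2-fold of the members' median. The median level was 85.6 CPM per kb for the large subunit and 75.4 CPM per kb for the small. Rps2, at the mRNA entry of the small subunit, was highest at 399 CPM per kb. Next came the stalk genes Rplp1 at 350 and Rplp0 at 218 CPM per kb, then Rpl23a at 203 and Rplp2 at 193 CPM per kb. Of their 31-base words, 14.7% were unique in Rps2, 24.9% in Rplp1, 46.7% in Rplp0, 10.2% in Rpl23a and 18.9% in Rplp2. The order of these genes therefore also rests on how the authors' counting divided reads among copies. The stalk proteins recruit the elongation factors, and Rplp1 and Rplp2 are present in more copies per ribosome than other ribosomal proteins.

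At the low end stood Rps4l at 0.618 CPM per kb, which GENCODE lists as a transcribed processed pseudogene. Rpl12, whose protein sits at the base of the stalk, was at 4.53 CPM per kb and Rpl5 at 5.35 CPM per kb. Rps15a followed at 7.40 and Rps20 at 14.9 CPM per kb, but the annotated transcripts used for these 2 are 5130 and 3706 bases long, so their level per kb may be too low if a shorter one is expressed. The same limit holds for Rpl12 and Rpl5, whose transcripts of 1242 and 2045 bases hold coding sequences of 495 and 891 bases. Rpl12 also shared 31-base words with 19 pseudogenes, and 48.0% of its words were unique. Rpl5 shared all but 5.20% of its 31-base words with other annotated genes, so its low level also rests on how the authors' counting divided reads among copies.

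**Figure D1:**
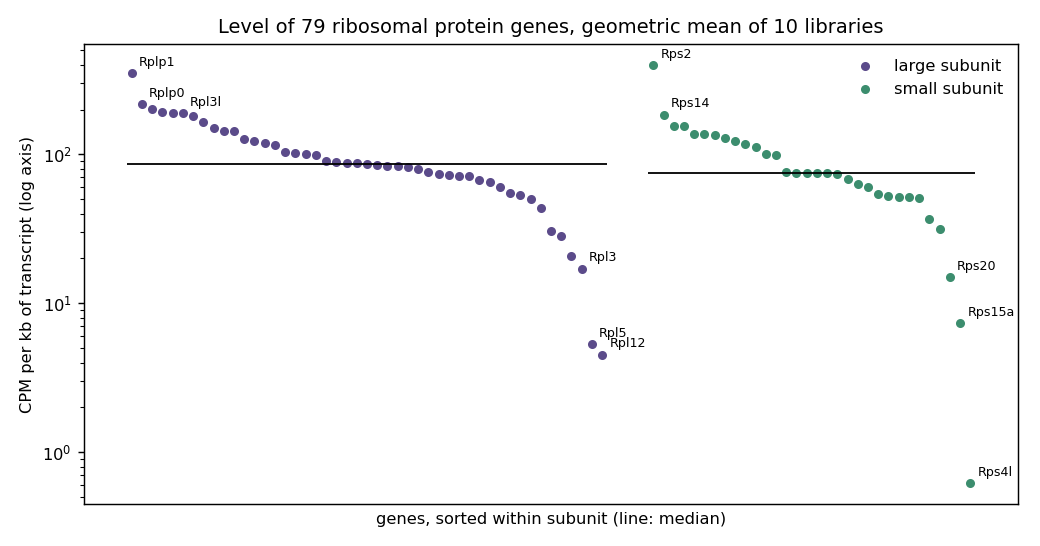
Level of each of the 79 genes in CPM per kb of transcript on a log axis, as the geometric mean of 10 libraries, sorted within the large and the small subunit, with a line at each subunit's median. Most genes lie near the 2 lines, Rps2 and the stalk genes stand at the top, and Rps4l, Rpl12 and Rpl5 at the bottom. The median was 85.6 CPM per kb for the large subunit and 75.4 CPM per kb for the 31 tested small-subunit genes. The small-subunit line also counts Rps4l.

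Rpl3l (chr17:24727820-24736143, plus strand, GRCm38, 10 exons in its main transcript) was the predominant paralogue over Rpl3 (chr15:80077791-80091868, minus strand, 10 exons). Rpl3l was at 7.96, 8.03, 8.03, 8.04 and 7.93 log2 CPM in KO and at 8.05, 8.10, 7.95, 8.02 and 8.09 log2 CPM in WT. Rpl3 was at 4.41, 4.56, 4.53, 4.55 and 4.40 log2 CPM in KO and at 4.58, 4.69, 4.42, 4.46 and 4.71 log2 CPM in WT. The groups overlapped for both genes.

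Per kb, Rpl3l was 11.01-fold above Rpl3, at 188 against 17.1 CPM per kb, so that it ranked 7 and Rpl3 74 of 79 members. The ratio of their CPM was 11.7, 11.1, 11.3, 11.2 and 11.6 in KO and 11.04, 10.6, 11.5, 11.8 and 10.4 in WT, with the KO values inside the range of the WT values. The log2 ratio differed by 0.041 between KO and WT (SE 0.061, 95% interval from -0.094 to 0.18), by 0.010 to 0.071 with 1 library left out and by 0.027 with a replicate block. This interval includes 0 and does not show that the ratio is alike in both groups. The difference was -0.044 for Rpl3l (SE 0.059, adjusted p = 0.858) and -0.085 for Rpl3 (SE 0.088, adjusted p = 0.803), both by limma.

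The transcripts of these paralogues shared no 31-base word. Rpl3l shared none with any annotated gene. Rpl3 kept only 12.4% of its words to itself and shared others with 33 pseudogenes, so its level is less certain than that of Rpl3l.

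**Figure D2:**
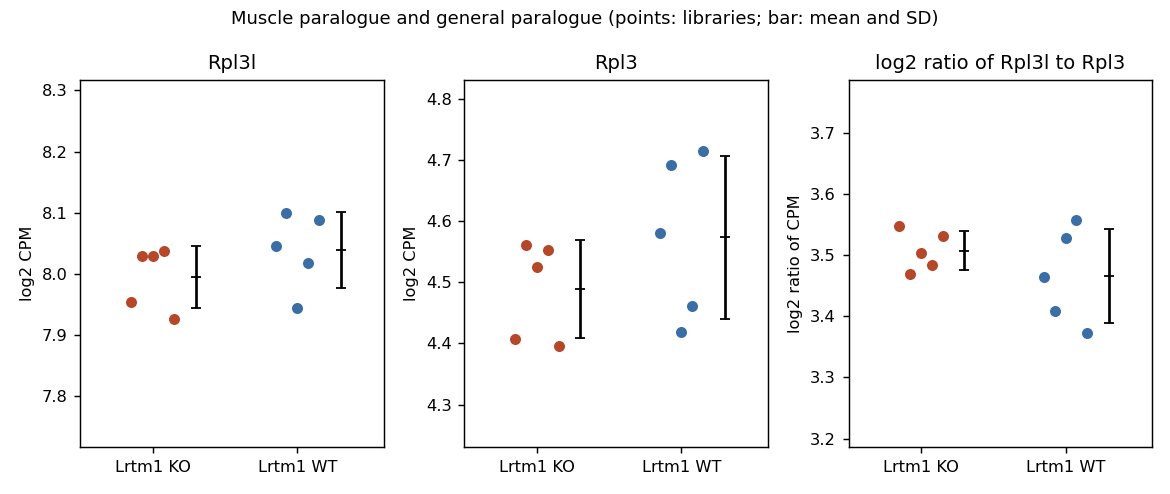
Log2 CPM of Rpl3l and of Rpl3 and the log2 ratio of their CPM in each library (points), with mean and SD of the 5 libraries labelled Lrtm1 KO and the 5 labelled Lrtm1 WT. The 3 panels span equal ranges in log2 units; KO and WT libraries overlap in each.

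Of the other paralogues, Rps27l, a relative of Rps27 that p53 can induce, was at 50.6 CPM per kb. It was 0.324-fold the level of Rps27 per kb, and the log2 ratio was 0.17 higher in KO than in WT with an interval that includes 0 (SE 0.084, 95% interval from -0.021 to 0.35). Rps27 shares nearly all of its sequence with other genes, with 1.30% of its 31-base words unique. Rps4l was at -0.92, -0.92, -0.69, -0.97 and -1.28 log2 CPM in KO and at -1.19, -1.001, -1.50, -0.70 and -1.18 log2 CPM in WT, with overlap, and was not tested.

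KO values of the ribosomal protein genes were slightly below WT values across the list, but no member passed the threshold by itself. The log2 difference of KO minus WT was below 0 for 75 of 78 members, against 51.4% of all tested genes, and for 66 members when libraries were centred within classes of transcript length. Its median was -0.097, a change of -6.50%, against -0.004 over all tested genes. With limma, 0 of 78 members passed an adjusted p of 0.05 as lower, where 0.0655% of all tested genes did, and 0 passed as higher, where 0.27% did (0.335% in either direction). In a fit that did not count the terms the authors had removed, 6 members were lower, where 3.48% of all tested genes were, and 0 higher, where 5.15% were. At an unadjusted p under 0.05, 13 members were lower and 0 higher, against 3.83% and 6.25% of all tested genes. That count of 13 was unstable: it was 6 without WT 1, 22 without WT 4, 24 without KO 4, 25 without WT 5 or with a replicate block, 7 within length classes and 4 with a prior variance without trend. The 78 genes share libraries and, as described below, much sequence, so their common direction is not 78 separate observations. In whole muscle, fewer cells of a type and less RNA per cell cannot be told apart.

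The members' median was below 0 in each litter. It was -0.13 for litter 108, -0.077 for litter 110 and -0.10 for litter 112, and 50 of 78 members were below 0 in all 3, against 24.2% of all tested genes. The deposited values had litter removed before deposit, so these within-litter values are not free of that adjustment. Groups did not overlap for 10 members, all lower in KO, where 7.63% of tested genes were lower without overlap and 8.56% higher. These 10 were Rpl26, Rps10, Rpl23a, Rpl29, Rpl32, Rpl28, Rps16, Rpl13a, Rpl11 and Rpl8.

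By library, the median level of the members was 5.70, 5.74, 5.75, 5.80 and 5.69 log2 CPM in KO and 5.88, 5.87, 5.81, 5.92 and 5.83 log2 CPM in WT. No KO library reached the lowest WT library on this measure. The share of all CPM taken by the members overlapped between groups, at 0.580% to 0.626% in KO and 0.620% to 0.656% in WT. Gene by gene the libraries were less separated. Of the 78 members, 75, 57, 60, 31 and 69 lay below their own mean over 10 libraries in KO libraries 1 to 5, against 5, 3, 49, 31 and 21 in WT libraries 1, 3, 4, 5 and 6. KO 4 and WT 5 had equal numbers, and WT 4 had the most of the WT libraries.

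**Figure D3:**
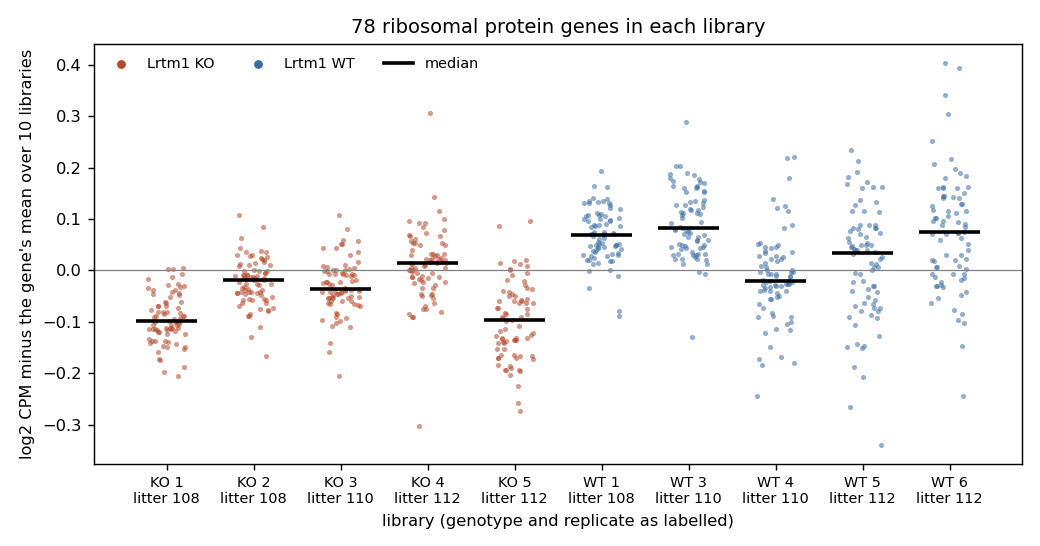
Deviation of each of 78 genes from its own mean over 10 libraries, in log2 CPM, by library, with the library's median as a bar; KO libraries are on the left and litters are named below. The medians run from -0.099 to 0.014 in the 5 KO libraries and from -0.020 to 0.082 in the 5 WT libraries, with KO 4 above WT 4.

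Rpl5, which with Rpl11 binds 5S rRNA and, when free of the ribosome, binds the p53 regulator Mdm2, had the largest difference. It was at 3.30, 3.29, 3.29, 3.43 and 3.34 log2 CPM in KO and at 3.65, 3.51, 3.67, 3.61 and 3.42 log2 CPM in WT. The groups met at KO 4 and WT 6. The difference was -0.24 (SE 0.090, adjusted p = 0.386, limma), and its partner Rpl11 had a difference of -0.10 (SE 0.057, adjusted p = 0.587).

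Rpl26, at the rim of the exit tunnel, had the smallest adjusted p of all members. It was at 5.27, 5.38, 5.37, 5.48 and 5.26 log2 CPM in KO and at 5.62, 5.62, 5.49, 5.54 and 5.55 log2 CPM in WT, every KO library below every WT library. The difference was -0.21 (SE 0.069, adjusted p = 0.325, limma).

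Rps10, which lies at the mRNA entry of the small subunit and is ubiquitinated on stalled ribosomes, was at 5.11, 5.10, 5.17, 5.15 and 5.02 log2 CPM in KO. In WT it was at 5.33, 5.32, 5.25, 5.45 and 5.23 log2 CPM, again with no overlap. The difference was -0.20 (SE 0.069, adjusted p = 0.345, limma). Only 3.20% of its 31-base words are unique.

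The next members by size of the difference were also below 0. Rps29 had a difference of -0.20, Rps27 and Rps25 of -0.19 each, Rpl23a, a docking site for factors that meet the nascent chain, of -0.18, and Rpl29 and Rpl32 of -0.18 each. Their adjusted p-values by limma were all above that of Rpl26. Rps29, Rps27 and Rps25 overlapped between groups, while Rpl23a, Rpl29 and Rpl32 did not.

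Rpl12 went against the common direction, but its 95% interval includes 0 (from -0.037 to 0.47). Its level per kb was the lowest of the tested members. It was at 2.50, 2.58, 2.55, 2.80 and 2.58 log2 CPM in KO and at 2.51, 2.36, 2.46, 2.35 and 2.25 log2 CPM in WT. KO 1 lay below WT 1, and KO 4 stood above all other libraries. The difference was 0.22 (SE 0.11, adjusted p = 0.572, limma), with values of 0.026, 0.14 and 0.39 in litters 108, 110 and 112. Of the other members above 0, Rpl30 had a difference of 0.045 and Rpl23 of 0.021.

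**Figure D4:**
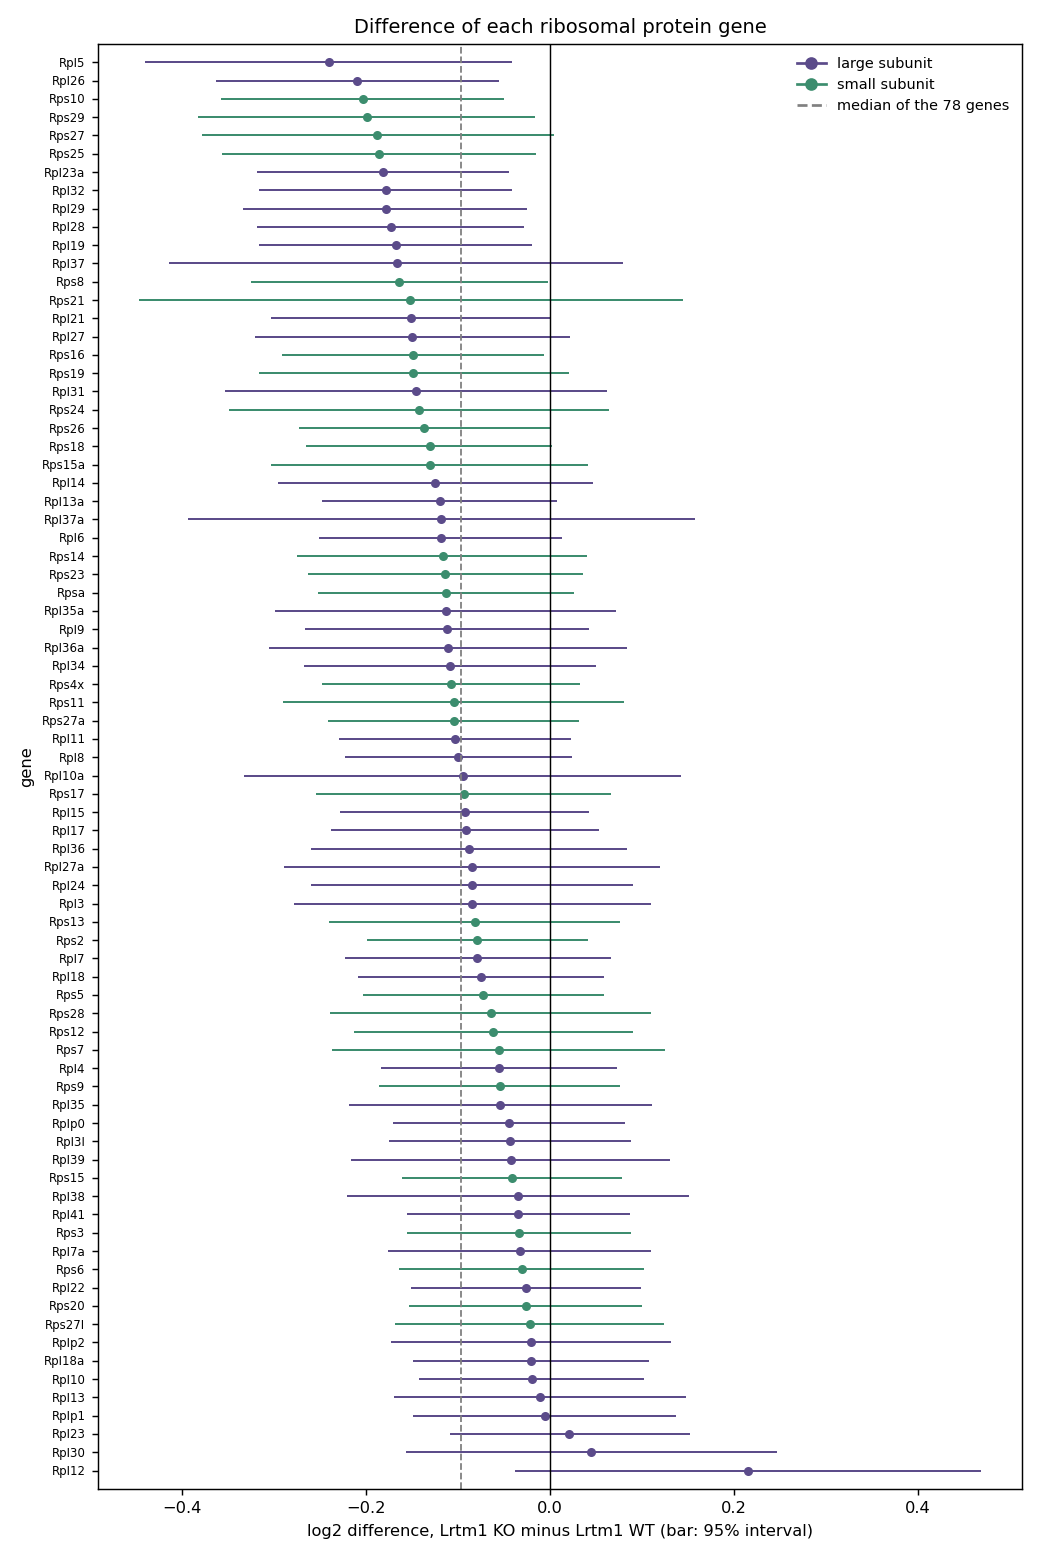
Log2 difference, Lrtm1 KO minus Lrtm1 WT, of each of 78 genes with its 95% interval from limma, sorted from lowest to highest and coloured by subunit. For 75 genes the point is below 0 (66 when libraries are centred within length classes), the interval of 13 lies wholly below 0 (6 to 25 with 1 library left out, 7 within length classes, 4 without trend in the prior variance), and that of 65, among them Rpl12 at 0.22, includes 0.

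Grouped by place in the ribosome, the medians were all below 0. The 3 stalk genes had a median difference of -0.021, with Rplp0 at -0.045, Rplp2 at -0.021 and Rplp1 at -0.006, of which Rplp2 and Rplp1 were above 0 when libraries were centred within length classes. The 8 exit tunnel genes had a median of -0.12 and the 6 genes of the mRNA channel of the small subunit -0.076. In no group did a gene pass the threshold. Rps6, the substrate of S6 kinase, had a difference of -0.031 (SE 0.060, adjusted p = 0.907, limma), which was 0.003 within length classes. Rps27a, made as a fusion with ubiquitin, had one of -0.11 (SE 0.061, adjusted p = 0.619), and Rpsa, also known as the laminin receptor, one of -0.11 (SE 0.063, adjusted p = 0.595). Rps2, Rps15a and Rps20, named for their levels, had differences of -0.079, -0.13 and -0.026.

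Several members serve as reference transcripts in quantitative PCR. The 7 looked at had a median difference of -0.15, from -0.20 in Rps29 to -0.045 in Rplp0. KO and WT overlapped for 5 of them and did not for 2, Rpl32 among the latter. Rpl32 was at 5.41, 5.44, 5.47, 5.42 and 5.35 log2 CPM in KO and at 5.58, 5.64, 5.50, 5.62 and 5.64 log2 CPM in WT, without overlap, a difference of -0.18 (SE 0.062, adjusted p = 0.350, limma). Rplp0 was at 8.15, 8.20, 8.15, 8.22 and 8.21 log2 CPM in KO and at 8.26, 8.25, 8.26, 8.13 and 8.27 log2 CPM in WT. Here the groups overlapped because of WT 5 alone, which lay below all KO libraries.

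Both subunits had a median below 0. The median difference was -0.092 for the large subunit, with 44 of 47 members below 0, and -0.11 for the small subunit, with 31 of 31 tested members below 0. The medians differed by 0.015, by 0.009 to 0.028 with 1 library left out, and by 0.082 among the 21 tested members with at least 50% of their 31-base words unique. Within a library, the large-subunit median deviation minus that of the small subunit was 0.014, 0.012, 0.006, 0.010 and -0.001 in KO and -0.030, 0.008, -0.004, -0.015 and 0.026 in WT. The KO values lie inside the range of the WT values.

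Transcript length moved with the difference over the whole table, and most members are short. In 5 classes of length, the median difference of all tested genes was -0.040, -0.024, -0.008, 0.009 and 0.045 from the shortest to the longest class. The 963 other genes under 1000 bases had a median of -0.040 with 63.6% below 0, and the 59 tested members under 1000 bases one of -0.10 with 98.3% below 0. When each library was centred within its length classes, the members' median was -0.063 and 66 of 78 were below 0. Among the members themselves the difference had a Spearman correlation of 0.12 with length and 0.30 with log2 CPM over 78 genes, given as a description. The part of length in the members' difference was not tested further.

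**Figure D5:**
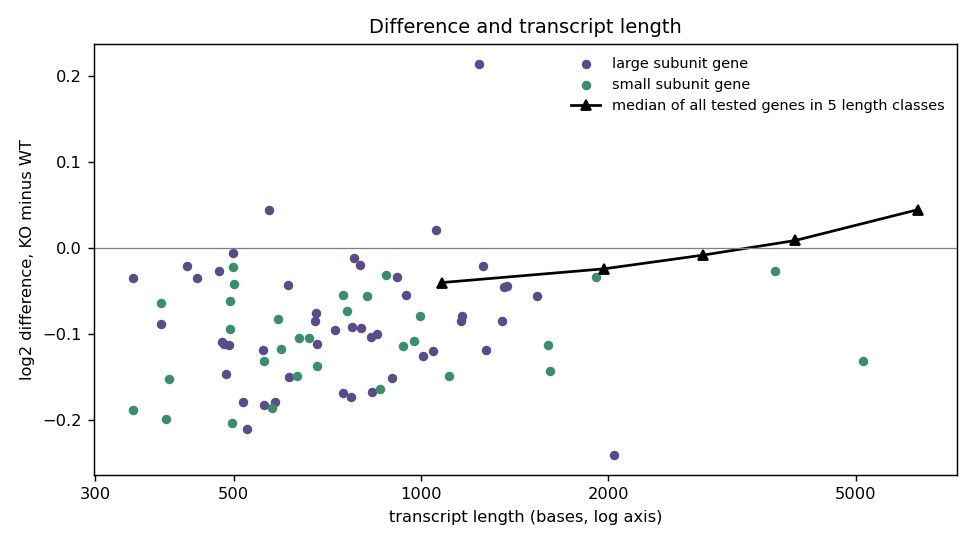
Log2 difference, Lrtm1 KO minus Lrtm1 WT, of 78 ribosomal protein genes against transcript length in bases on a log axis, coloured by subunit, with the median difference of all tested genes in 5 length classes as triangles. The triangles run from -0.040 to 0.045 with length, and most members lie below the triangle of the shortest class.

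Sequence shared with pseudogenes limits single members. The median member had 36.8% of its 31-base words unique, 8 members had under 10%, and 78 of 79 shared words with at least 1 annotated pseudogene. The 21 tested members with at least 50% unique words had a median difference of -0.073 with 20 below 0, and the 57 others one of -0.11 with 55 below 0. Of the rows with a pseudogene symbol of these genes, 14 were listed and 9 tested, with a median difference of -0.078 and 7 below 0. In them 0 passed the threshold.

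Start regions were read from RefSeq (GRCm38.p6), which held a start for 58 of the 79 members. A C at the first base followed by 4 pyrimidines was found in 13 of 58 members (22.4%), against 3.06% of 10194 listed genes with a start. A C followed by 6 pyrimidines within 15 bases of the start on either side, on the sense strand, was found in 30 members (51.7%), against 18.4% of genes. The windows below hold 10 bases before the start and 20 from it, with the longest run of at least 5 pyrimidines in capitals. Rps6, Rpl28, Rps18 and Rps10 are shown as starts with the tract, and Rpl26, Rpl5, Rpl12 and Rpl3l as members that carry the results above and lack it at the first base.
Rps6: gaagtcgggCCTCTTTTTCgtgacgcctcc
Rpl28: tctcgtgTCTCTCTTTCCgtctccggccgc
Rps18: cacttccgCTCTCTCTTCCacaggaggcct
Rps10: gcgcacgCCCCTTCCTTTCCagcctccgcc
Rpl26: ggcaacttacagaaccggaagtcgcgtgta
Rpl5: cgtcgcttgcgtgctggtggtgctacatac
Rpl12: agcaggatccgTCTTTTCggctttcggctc
Rpl3l: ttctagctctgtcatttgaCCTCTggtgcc

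These windows lie at chr4:86857348-86857377 (minus strand) for Rps6, chr7:4792955-4792984 (plus) for Rpl28, chr17:33955646-33955675 (minus) for Rps18 and chr17:27635225-27635254 (minus) for Rps10. Those of the second set lie at chr11:68901556-68901585 for Rpl26, chr5:107900518-107900547 for Rpl5, chr2:32961702-32961731 for Rpl12 and chr17:24727816-24727845 for Rpl3l, all on the plus strand. All 8 starts differ from the start of the GENCODE transcript used for that gene. The distance was 769 bases for Rps10, 153 for Rpl12, and 6 (Rpl3l) to 45 (Rps6) for the others. Starts of other GENCODE transcripts were not compared, so the first base is uncertain for each. A start that is off by a few bases hides the tract, so the lack of it in a window says nothing about the transcript in muscle.

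The 13 members with the tract at the first base had a median difference of -0.13 and the 45 without it one of -0.085. For the broader pattern the medians were -0.10 in the 30 with it and -0.094 in the 28 without. Of motifs searched on both strands from 250 bases before to 50 after the start, CCGGAA, the core of ETS-family sites, was in 55.2% of members against 30.5% of genes. GGGCGG was in 60.3% against 67.9%, TATAAA in 10.3% against 9.25%, and CACGTG, the E-box bound by Myc, in 10.3% against 11.8%.

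CAGCTG, an E-box of the kind bound by myogenic factors, was in 3 members, Rpl3l, Rpl6 and Rpl35 (5.17%), against 18.3% of genes. In Rpl3l, the member specific to striated muscle, it lies within the 250 bases before the start (chr17:24727576-24727825, plus strand), shown here with the motif in capitals. A match is only a run of letters and no evidence of binding.
Rpl3l upstream: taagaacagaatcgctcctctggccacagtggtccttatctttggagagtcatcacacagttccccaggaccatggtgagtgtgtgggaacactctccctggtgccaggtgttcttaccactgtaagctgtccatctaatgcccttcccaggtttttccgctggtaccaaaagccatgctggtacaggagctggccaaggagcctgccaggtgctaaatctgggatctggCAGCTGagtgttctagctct

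Of the ribosomal proteins outside the naming rule, Rack1, a signalling scaffold on the small subunit, had a difference of -0.077 with no overlap between groups (adjusted p = 0.674, limma). A list of 20 other genes known for pyrimidine-tract transcripts, mostly translation factors but also Gas5, Hnrnpa1, Npm1, Nap1l1 and Tpt1, had a median of -0.033 and 0 calls. Among them Eef1a1, which brings tRNA to the ribosome, had a difference of -0.10, and Naca, which binds nascent chains, one of 0.15 (SE 0.055, adjusted p = 0.392, limma).

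The lists of genes that make rRNA and assemble ribosomes had medians on both sides of 0. The 20 genes of RNA polymerase I and rRNA transcription had a median difference of 0.038 with 11 above 0, the 30 of rRNA modification and processing one of -0.040 with 10 above 0, and the 31 of assembly and export one of 0.016 with 17 above 0. Of these, 0 passed the threshold in each list. The smallest p-values belonged to Polr2k (-0.21) and Polr1f (-0.16), to Nop10 (-0.13) and Utp15 (0.19), and to Nle1 (0.32) and Mdn1 (0.23), whose yeast counterparts act together in maturing the large subunit.

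Nle1 was at 3.27 ± 0.058 log2 CPM in KO and 2.96 ± 0.11 log2 CPM in WT (SD, n = 5 each), without overlap (adjusted p = 0.281, limma). The 18 regulators of these genes and mRNAs had a median difference of 0.033 with 12 above 0 and 0 past the threshold. Rps6kb1, the S6 kinase downstream of mTOR complex 1, had a difference of -0.16 (SE 0.059, adjusted p = 0.394), and Rptor, a subunit of that complex, one of 0.16 (SE 0.079, adjusted p = 0.544).

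Markers of other cell types in the muscle were measured beside these results. All 7 tested adipocyte markers of the 8 listed were below 0, with a median difference of -0.90 and 0 past the threshold. Their summed level was 1832 to 2115 CPM in KO and 2040 to 2194 CPM in WT, but nearly all of it was Car3, which muscle fibres also express, at 1932 ± 108 CPM in KO and 2051 ± 66.7 CPM in WT (SD, n = 5 each). Lep had a difference of -2.21 (SE 0.41) and Cidec one of -1.20 (SE 0.26). Cidec averaged -0.083 log2 CPM in KO and 1.12 log2 CPM in WT, so only its WT level carried it past the minimum mean of 0. The 7 tested markers had a median level of 1.245 log2 CPM, and Lep may have passed in the same way. No p-value or overlap is therefore given for Lep and Cidec. Cfd had a difference of -0.62 (SE 0.14, adjusted p = 0.123, limma), with every KO library below every WT library. Fibroblast markers had a median of -0.10 (7 of 8 below 0, summed 988 to 1097 CPM in KO and 995 to 1194 CPM in WT), macrophage markers one of -0.096 (6 of 8 below 0, summed 62.5 to 67.0 CPM in KO and 63.0 to 68.7 CPM in WT) and myofibre markers one of 0.013. Medians were below 0 for the other cell types too. Satellite cell markers had one of -0.086 (5 of 6 below 0) and Schwann cell markers one of -0.082 (3 of 3). The 1 satellite cell marker above 0 had a difference of 0.29 without overlap between groups. Its adjusted p of 0.165 (limma) was the smallest of that list. Smooth muscle and pericyte markers had one of -0.05 (4 of 6), erythroid markers -0.044 (4 of 5) and endothelial markers -0.033 (5 of 8). Of the 8 lymphocyte and neutrophil markers only Ptprc was listed. The part of these cell types in the members' difference was not tested.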

How the data were processed

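The deposited values are adjusted log2 CPM for 13492 genes, which the authors made with fastp, kallisto and limma, per the submitters' processing notes. The sources used here state no versions, genome build or annotation. Depth is unknown. The values have litter and 3 further terms removed with genotype kept, so SDs leave out that variation. Differences (KO minus WT) were fitted with limma 3.58.1 in R 4.3.3 (lmFit, eBayes with trend) on all 12223 genes with a mean of at least 0, two-sided, with litter, genotype and the 3 removed directions as terms, which leaves 3 residual degrees of freedom; p-values were Benjamini-Hochberg adjusted over all genes tested. The steps were tested on simulated data. Lengths, positions and 31-base words came from GENCODE M21 (GRCm38), using the shortest principal coding transcript, and matched 99.1% of tested genes.

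The members and lists were chosen with earlier results of these data known. Named genes are the 10 members with the largest difference, the 5 highest and 5 lowest per kb, Rpl3, the stalk genes, Rpsa, Rps27a, Rps6, paralogues, and 2 genes per pathway list; Rpl6, Rpl8, Rpl11, Rpl13a, Rpl23, Rpl28, Rpl30, Rpl35, Rps16, Rps18, the cell markers and the 5 genes that are not translation factors were named after their values were seen. Alternatives are given in the closing section. The list of ribosomal proteins outside the naming rule is not reported here as a whole.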

Additional observations from a re-analysis of the deposited data

Results flagged for a closer look

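Of 80 groups of 5 libraries looked at among the named genes and summaries, 5 held 1 library far from the other 4. Chance alone flags about 1 in 20 groups of independent values. The adjusted values are not independent between libraries, so the 5 flagged groups cannot be set against that rate. The library was KO 4 in 3 of the 5 and WT 5 in the other 2. Rpl12 in KO 4 was at 2.80 log2 CPM, with the other KO libraries at 2.50 to 2.58. Rpsa in KO 4 was at 7.85 log2 CPM, with the others at 7.66 to 7.71. Rps6kb1 in KO 4 was at 5.06 log2 CPM, with the nearest other KO library at 5.01. Rplp0 in WT 5 was at 8.13 log2 CPM, with the other WT libraries at 8.25 to 8.27. Rps20 in WT 5 was at 5.72 log2 CPM, with the others at 5.81 to 5.83.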

How the results depend on the processing

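The members' median difference stayed below 0 under each alternative run, between -0.12 and -0.063, and 0 members passed the threshold in each but one. That one was the fit in which the removed terms are not counted: 6 members were lower (Rpl5, Rpl26, Rps10, Rpl23a, Rpl32 and Rps16), where 3.48% of tested genes were, and 0 higher, where 5.15% were. It counts 6 residual degrees of freedom where 3 remain and calls 1054 of all genes, against 41. The count over all genes was 128 with a replicate block in place of litter and 1 with a prior variance without trend. It was 8 to 60 with 1 library left out: 11 without KO 3, 8 without WT 1, 20 without WT 5 and 17 without WT 6. Large minus small was 0.082 among members with at least 50% unique words, an alternative chosen after seeing the data. Directions turned for Rplp1 (0.012 with the replicate block, 0.028 within length classes), and within length classes for Rplp2 (0.014), Rps6 (0.003) and Rps27l (0.012). With 1 library left out Rplp1 ranged from -0.055 to 0.031, Rplp2 from -0.055 to 0.018, Rps27l from -0.040 to 0.004 and Rps6 from -0.067 to 0.002. The cause was not tested. Lrtm1 missed the threshold within length classes (adjusted p = 0.0552, limma), without trend (0.315), and without KO 3 (0.0789), WT 1 (0.143), WT 5 (0.0788) or WT 6 (0.0529). Deviations of same-numbered libraries correlated at -0.85, 0.45, 0.032 and -0.50. The adjustment, which removed litter and 3 further terms, shapes these correlations. They therefore cannot show whether replicate numbers pair the libraries. Unknown depth limits the lowest members.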
